A study of Saccharomyces cerevisiae with 4 samples.

Results

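Budding yeast, Saccharomyces cerevisiae, makes its amino acids by pathways whose enzyme genes are largely shared targets of the transcription factor Gcn4, and 42 such genes are described here on arrays of cells treated with celastrol or with heat. The 42 were a fixed list of named genes: the histidine, branched-chain, lysine, tryptophan and proline pathways, the aspartate family, the enzymes that fix ammonia into glutamate and glutamine, and GCN4 itself. A gene was used where a probe carried its symbol alone, which held for 41 of the 42, and where all 4 arrays held a value, which held for 40 of the 5403 genes tested in all. The probe of BAT1 is annotated to a second gene as well, and LYS21 is listed at exactly 0 on all 4 arrays, which was taken as not measured. Each of the 40 genes has 1 probe.

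On 2 arrays, total RNA of cells given 10 µM celastrol, a plant triterpenoid, for 1 h (Cy5) was hybridised with RNA of DMSO-treated cells (Cy3), DMSO being the solvent. On 2 other arrays the Cy5 sample came from cells exposed to 39 °C for 30 min and the Cy3 sample from cells left at 30 °C. The sources used here name no strain, medium or growth phase, and nothing says whether the arrays of a treatment came from separate cultures, so p-values measure only the spread between these arrays, which may be technical. The study asked how the response to the drug stands beside that to heat. The treated sample carried the same dye on every array. A probe's dye effect therefore cannot be told apart from its response to either treatment, and drops out of the difference between treatments only if it is the same on all arrays.

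Amino acid starvation in yeast leaves tRNAs uncharged, which activates the kinase Gcn2 and raises translation of GCN4 mRNA through its upstream reading frames. Gcn4 protein then activates the biosynthetic genes, a response called general amino acid control. Single pathways have regulators of their own, such as Leu3 for leucine synthesis and Lys14 for lysine synthesis, and the first enzyme of a pathway is commonly inhibited by its end product. Since Gcn4 is set mainly by translation and turnover, the level of its mRNA is a poor guide to its activity.

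Values below are log2 ratios, treated over control, of single arrays, with base 2 settled on heat shock replicate 1 and assumed for the other arrays. "Rose" and "fell" are used of genes called at a Benjamini-Hochberg adjusted p under 0.05 in a limma fit of all 5403 genes over the 4 arrays. The chaperone genes SSA4 and HSP104, which answer to protein damage, checked the labels: SSA4 had ratios of 3.69 and 4.59 on the celastrol arrays, against 3.73 and 4.77 on the heat shock arrays, and HSP104 had 1.53 and 2.49 against 3.76 and 2.77. The median over all genes was −0.10 and −0.14 on the celastrol arrays and 0.04 and −0.05 on the heat shock arrays, so a ratio after celastrol lies about 0.1 higher when read against the bulk of genes.

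Most of the amino acid genes lay near their DMSO level after celastrol, while heat shock lowered 4 of 9 branched-chain and 3 of 7 aspartate-family genes. After celastrol 33 of the 40 genes (82.5%) lay within 0.5 log2 units of 0, against 68.3% of all genes tested. After heat shock 17 of the 40 (42.5%) did, against 66.3% of all genes. After celastrol 1 of the 40 was called, LEU9, which fell. That is 2.5% of the list, where 6.53% of all genes were called (3.85% higher, 2.68% lower). After heat shock 10 were called, 2 higher and 8 lower, or 25.0% of the list, where 9.07% of all genes were called (4.28% higher and 4.79% lower). On both celastrol arrays 14 of the 40 genes (35.0%) lay above 0 and 14 below it, where 29.0% of all genes lay above and 49.6% below. On both heat shock arrays 11 (27.5%) lay above 0 and 24 (60.0%) below it, where 34.2% of all genes lay above and 36.7% below.

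**Figure D1:**
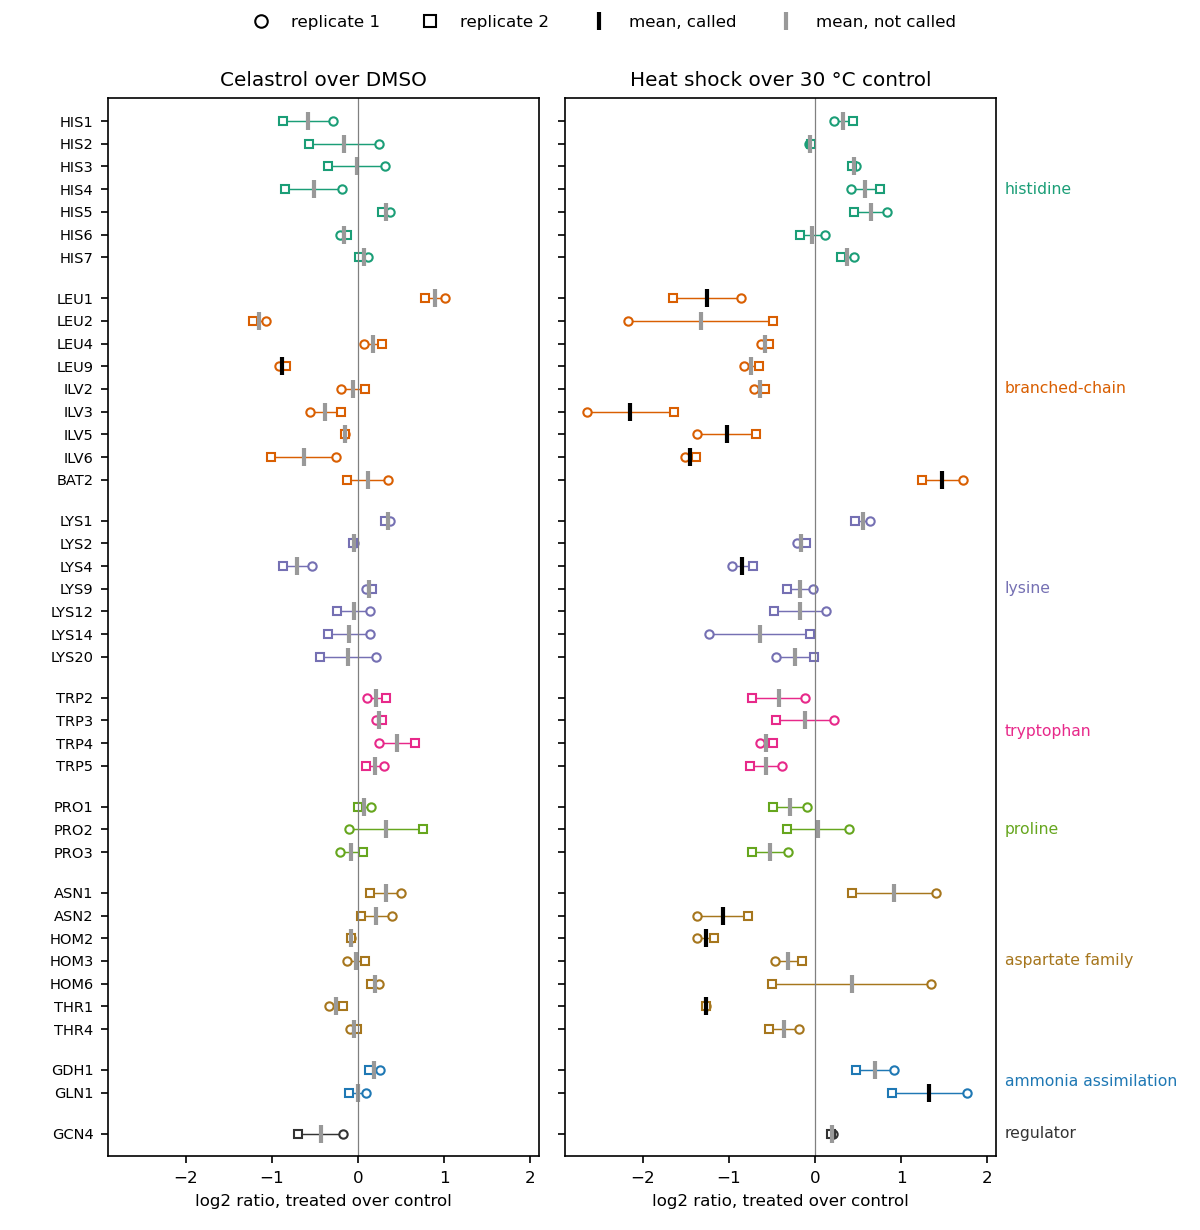
Log2 ratio of treated over control (x axis) for each of the 40 amino acid genes (rows, grouped by pathway) on celastrol arrays (left) and heat shock arrays (right). Circles and squares are the 2 arrays of a treatment joined by a line, and the vertical tick is their mean, black where limma called the gene. Black ticks mark 1 gene after celastrol and 10 after heat shock, 5 of them in the branched-chain pathway.

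The treatments share an estimate of spread, so the calls of each treatment borrow from the arrays of the other. With the heat shock arrays fitted alone, limma called 0 of the 40 genes and 0 of all genes. At an unadjusted limma p under 0.05 stood 20 of the 40 in that fit, against 1154 of all 5403 genes. Without heat shock replicate 1, the called genes nearest 0 were ILV5, LYS4, ASN2 and GLN1, at −0.68, −0.72, −0.77 and 0.89. Their means over both arrays were −1.02, −0.84, −1.07 and 1.33. Calls with 1 heat shock array left are not read as results, since that array gives no spread of its own. With the celastrol arrays fitted alone, limma called 4 of the 40 genes, where 1522 of all 5403 genes were called. These were LEU1, which was higher, and LEU2, LEU9 and LYS4, which were lower.

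The branched-chain pathway makes isoleucine, valine and leucine, and after heat shock 4 of its 9 measured genes fell, 1 rose and 4 were not called. ILV3 encodes dihydroxyacid dehydratase, an iron-sulfur enzyme of the mitochondrion used for all 3 end products. It had ratios of −0.56 and −0.20 on the celastrol arrays, against −2.65 and −1.64 on the heat shock arrays. The heat shock mean of −2.14 ± 0.71 (SD, n = 2) is 0.226 of the 30 °C level, ranked 15 from the lowest of 5403 genes (limma adjusted p = 0.0194). Both celastrol arrays lay above both heat shock arrays, as they did for 18.1% of all genes.

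Acetolactate synthase, which catalyses the first step common to valine and isoleucine, is made of a catalytic subunit, Ilv2, and a regulatory subunit, Ilv6, that carries feedback by valine. ILV6 had ratios of −0.25 and −1.01 on the celastrol arrays, against −1.51 and −1.38 on the heat shock arrays. It fell after heat shock by 1.45 on the log2 scale (SD 0.09, n = 2; adjusted p = 0.0271). ILV2 had −0.20 and 0.08 after celastrol, against −0.70 and −0.57 after heat shock (mean −0.64 ± 0.09, SD, n = 2), and was not called (adjusted p = 0.0754). ILV5, for the reductoisomerase that acts next, had −0.16 and −0.15 on the celastrol arrays, against −1.37 and −0.68 on the heat shock arrays. It fell to 0.491 of the 30 °C level after heat shock (−1.02 ± 0.48, SD, n = 2; adjusted p = 0.0495), a call that was lost with median-centred arrays, with exact zeros kept as values and with robust fitting. For all 3 genes the arrays of the treatments did not overlap, with celastrol higher, as for 18.1% of all genes.

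In the leucine branch the genes differed in how they stood under celastrol. LEU4 and LEU9 encode isoenzymes of isopropylmalate synthase, the step that commits to leucine, with Leu4 the main one and inhibited by leucine. LEU9 had ratios of −0.92 and −0.84 on the celastrol arrays, against −0.83 and −0.65 on the heat shock arrays. It was the gene that fell after celastrol, to 0.544 of the DMSO level (−0.88 ± 0.06, SD, n = 2; adjusted p = 0.0412), and it was not called after heat shock (adjusted p = 0.0502). With each array centred on its median it was −0.76 after celastrol and no longer called. LEU4 had 0.06 and 0.28 on the celastrol arrays, against −0.62 and −0.53 on the heat shock arrays, and was called after neither treatment. The isoenzyme genes thus lay on opposite sides of 0 after celastrol and on the same side after heat shock.

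LEU1 encodes isopropylmalate isomerase, an iron-sulfur enzyme of the cytosol that acts on the product of Leu4 and Leu9. It had ratios of 1.01 and 0.77 on the celastrol arrays, against −0.86 and −1.65 on the heat shock arrays. It fell after heat shock to 0.419 of the 30 °C level (−1.25 ± 0.56, SD, n = 2; adjusted p = 0.0409), while its mean after celastrol, 0.89 ± 0.16 (SD, n = 2), was the highest of the 40 genes and was not called (adjusted p = 0.0832). LEU1 had opposite signs under the treatments on every array. LEU2 encodes the dehydrogenase of the next step and had −1.07 and −1.22 on the celastrol arrays, against −2.16 and −0.49 on the heat shock arrays. It was called after neither treatment (adjusted p = 0.132 after celastrol and 0.103 after heat shock), and its heat shock arrays lay far apart, with an SD of 1.18 where the median over all genes was 0.24. Its celastrol arrays lay close together (SD 0.10), and the fit shared the spread of both treatments. With the celastrol arrays fitted alone LEU2 was called lower (limma adjusted p = 0.00232), where 1522 of all 5403 genes were called. With quantile normalization it was called lower after celastrol and after heat shock (limma adjusted p = 0.0153 and 0.0322), where 1135 and 989 of all genes were called. LEU2 is deleted or mutated in many laboratory strains as a selection marker. A log ratio carries no signal level by which the presence of LEU2, or of any other gene listed, could be read.

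BAT2 encodes the cytosolic branched-chain aminotransferase, which interconverts the amino acids and their keto acids and is known for a part in their breakdown. It had ratios of 0.35 and −0.13 on the celastrol arrays, against 1.72 and 1.24 on the heat shock arrays. It rose 2.79-fold after heat shock (1.48 ± 0.33, SD, n = 2; adjusted p = 0.0225), while every other measured gene of the pathway lay below 0 on both heat shock arrays. For its mitochondrial counterpart the array has a probe annotated to BAT1 and YBT1 together, whose ratios were 0.12 and 0.51 on the celastrol arrays, against −1.29 and −1.28 on the heat shock arrays. Which of the 2 genes that probe measured is not given, so it was left out of every count.

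Over the 9 branched-chain genes the median was −0.20 and −0.15 on the celastrol arrays, against −0.86 and −0.65 on the heat shock arrays. The medians of the other pathways lay above −0.65 on both heat shock arrays.

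**Figure D2:**
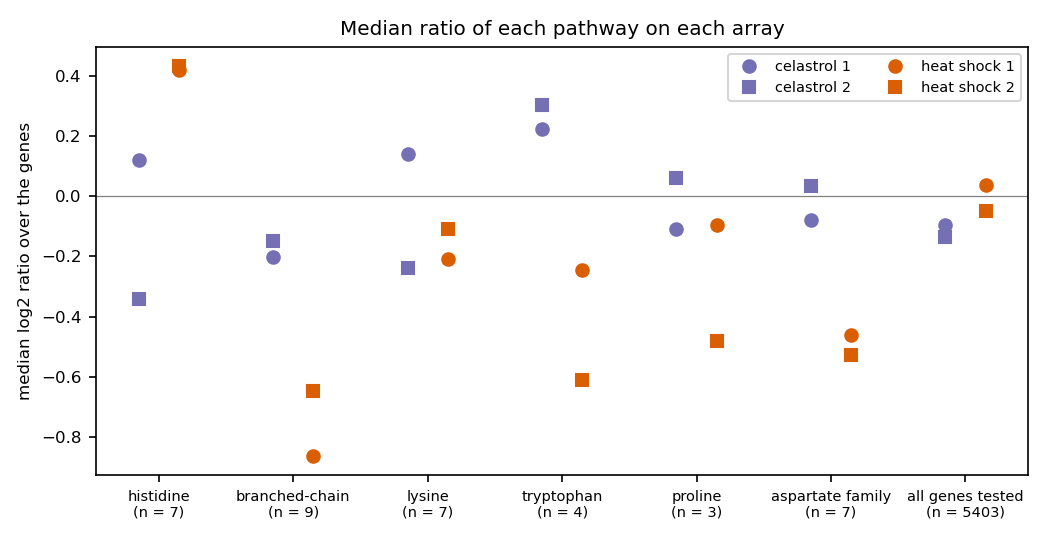
Median log2 ratio of treated over control (y axis) over the measured genes of each pathway and over all 5403 genes, with 1 point per array, celastrol left of heat shock in each pair. On heat shock arrays the branched-chain median was −0.86 and −0.65 and the histidine median 0.42 and 0.43, and the all-gene medians of all 4 arrays lay between −0.14 and 0.04.

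In the aspartate family, which leads from aspartate to asparagine, homoserine and threonine, 3 of 7 genes fell after heat shock, 0 rose, and none was called after celastrol. HOM2 encodes aspartate-semialdehyde dehydrogenase and had ratios of −0.08 on both celastrol arrays, against −1.37 and −1.17 on the heat shock arrays. It fell to 0.415 of the 30 °C level after heat shock (−1.27 ± 0.14, SD, n = 2; adjusted p = 0.018). THR1, for homoserine kinase, had −0.33 and −0.18 on the celastrol arrays, against −1.26 on both heat shock arrays, and it fell to 0.417 of the 30 °C level (adjusted p = 0.018). For HOM2 and THR1 both heat shock arrays lay below both celastrol arrays, as they did for 18.1% of all genes.

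The remaining homoserine and threonine genes were called after neither treatment. HOM3, for aspartate kinase, the step that threonine inhibits, averaged −0.02 ± 0.15 after celastrol and −0.31 ± 0.22 after heat shock (SD, n = 2 each). THR4, for threonine synthase, averaged −0.05 ± 0.05 after celastrol and −0.36 ± 0.24 after heat shock (SD, n = 2 each). HOM6, for homoserine dehydrogenase, had 0.24 and 0.15 on the celastrol arrays, against 1.35 and −0.50 on the heat shock arrays. Its heat shock arrays thus lay on opposite sides of 0, with the highest SD of the 40 genes, 1.30.

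Asparagine synthetase is encoded by ASN1 and ASN2, whose ratios lay on opposite sides of 0 after heat shock. ASN2 had 0.39 and 0.03 on the celastrol arrays, against −1.36 and −0.77 on the heat shock arrays, and fell after heat shock to 0.477 of the 30 °C level (−1.07 ± 0.42, SD, n = 2; adjusted p = 0.0455), a call that was lost with exact zeros kept as values. ASN1 had 0.50 and 0.14 on the celastrol arrays, against 1.40 and 0.43 on the heat shock arrays, and was not called after heat shock (0.92 ± 0.69, SD, n = 2; adjusted p = 0.102). Each array of ASN1 after heat shock lay above 0 and each array of ASN2 below it. Transcripts of isoenzyme genes may bind each other's probes where their sequences are alike, which was not tested.

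The genes for ammonia assimilation were both above 0 on the heat shock arrays. GLN1 encodes glutamine synthetase and had ratios of 0.10 and −0.11 on the celastrol arrays, against 1.76 and 0.89 on the heat shock arrays. It rose 2.51-fold after heat shock (1.33 ± 0.61, SD, n = 2; adjusted p = 0.0407). GDH1, for the NADPH-dependent glutamate dehydrogenase, had 0.25 and 0.13 on the celastrol arrays, against 0.92 and 0.48 on the heat shock arrays, and was called after neither treatment (adjusted p = 0.526 and 0.0764).

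No histidine gene was called after either treatment. On both heat shock arrays 5 of the 7 lay above 0, where 34.2% of all genes did. The pathway median was 0.12 and −0.34 on the celastrol arrays, against 0.42 and 0.43 on the heat shock arrays. HIS4, for a multifunctional enzyme of several steps and a much used reporter of Gcn4 activity, had −0.18 and −0.85 on the celastrol arrays, against 0.42 and 0.75 on the heat shock arrays. HIS1, for the first enzyme of the pathway, had −0.29 and −0.88 on the celastrol arrays, against 0.22 and 0.44 on the heat shock arrays. In HIS1, HIS3, HIS4, HIS5 and HIS7 both celastrol arrays lay below both heat shock arrays, without overlap, as they did for 28.9% of all genes. HIS2 and HIS6 averaged −0.16 ± 0.57 and −0.16 ± 0.06 after celastrol, against −0.06 ± 0.01 and −0.03 ± 0.21 after heat shock (SD, n = 2 each).

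HIS5, for the aminotransferase, was the highest of the 7 after both treatments, at 0.32 ± 0.06 after celastrol and 0.65 ± 0.27 after heat shock (SD, n = 2 each; adjusted p = 0.268 and 0.0829). HIS3, for the dehydratase, averaged −0.01 ± 0.47 after celastrol and 0.45 ± 0.03 after heat shock, and HIS7, for the glutamine-using cyclase, 0.07 ± 0.08 and 0.37 ± 0.11 (SD, n = 2 each). Celastrol replicate 2 lay below replicate 1 for 6 of the 7 genes, HIS6 being the exception.

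Of the 7 lysine genes 1 fell after heat shock, LYS4, for the iron-sulfur enzyme homoaconitase, and 0 were called after celastrol. LYS4 had ratios of −0.53 and −0.88 on the celastrol arrays, against −0.96 and −0.72 on the heat shock arrays. It fell after heat shock to 0.558 of the 30 °C level (−0.84 ± 0.17, SD, n = 2; adjusted p = 0.0496) and was not called after celastrol (−0.70 ± 0.24, SD, n = 2; adjusted p = 0.0746). The heat shock call was lost with median-centred arrays, with exact zeros kept as values and with robust fitting, which leaves no called lysine gene. Its treatments overlapped.

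The other lysine genes were called after neither treatment. LYS1, for the saccharopine dehydrogenase of the last step, had 0.37 and 0.32 on the celastrol arrays, against 0.64 and 0.47 on the heat shock arrays, above 0 on all 4. LYS2, for aminoadipate reductase, averaged −0.05 ± 0.02 after celastrol and −0.16 ± 0.07 after heat shock, and LYS9, for the saccharopine dehydrogenase before the last step, averaged 0.13 ± 0.05 and −0.18 ± 0.22 (SD, n = 2 each). LYS12, for homoisocitrate dehydrogenase, averaged −0.05 ± 0.27 after celastrol and −0.17 ± 0.43 after heat shock (SD, n = 2 each). LYS20, for homocitrate synthase, the committed step, averaged −0.11 ± 0.46 and −0.23 ± 0.31 (SD, n = 2 each), and its isoenzyme gene LYS21 has no value. LYS14, for the activator of the pathway's genes, had 0.14 and −0.34 on the celastrol arrays, against −1.23 and −0.05 on the heat shock arrays, where replicate 1 alone was far from 0.

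All 4 tryptophan genes lay above 0 on both celastrol arrays, as did 29.0% of all genes tested, and none was called after either treatment. TRP4, for anthranilate phosphoribosyltransferase, had 0.24 and 0.66 on the celastrol arrays, against −0.64 and −0.49 on the heat shock arrays (adjusted p = 0.166 and 0.114). TRP2, for the anthranilate synthase that tryptophan inhibits, averaged 0.21 ± 0.16 after celastrol and −0.42 ± 0.44 after heat shock (SD, n = 2 each). TRP5, for tryptophan synthase, averaged 0.20 ± 0.15 after celastrol and −0.57 ± 0.27 after heat shock (SD, n = 2 each). In these 3 genes both celastrol arrays lay above both heat shock arrays, as they did for 18.1% of all genes. TRP3, for the partner subunit of Trp2, had 0.21 and 0.28 on the celastrol arrays, against 0.22 and −0.45 on the heat shock arrays.

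The 3 proline genes make proline from glutamate, and none was called after either treatment. PRO1, for glutamyl kinase, averaged 0.07 ± 0.11 after celastrol and −0.29 ± 0.27 after heat shock, and PRO3, for the reductase of the last step, −0.08 ± 0.19 and −0.52 ± 0.29 (SD, n = 2 each). PRO2, for glutamyl phosphate reductase, had −0.11 and 0.75 on the celastrol arrays, against 0.39 and −0.33 on the heat shock arrays, so that the arrays of each treatment lay on opposite sides of 0.

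GCN4 mRNA was called after neither treatment. Its ratios were −0.17 and −0.70 on the celastrol arrays, against 0.21 and 0.19 on the heat shock arrays (−0.43 ± 0.37 and 0.20 ± 0.01, SD, n = 2; adjusted p = 0.195 and 0.51). Both celastrol arrays lay below both heat shock arrays, as they did for 28.9% of all genes.

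Set directly against each other in the same fit, celastrol and heat shock differed for 0 of the 40 genes by limma. Of all genes 1.11% were called. At an unadjusted limma p under 0.05 stood 14 of the 40, against 741 of all 5403 genes. LEU1 had the largest difference, celastrol minus heat shock, 2.14 (SE 0.33; adjusted p = 0.0655), ranked 36 from the highest of 5403 genes. HOM2 followed by p, at 1.19 (SE 0.22; adjusted p = 0.0955). Differences of 1.77 for ILV3 (SE 0.40), 1.28 for ASN2 (SE 0.30), 1.01 for THR1 (SE 0.21) and 1.01 for TRP4 (SE 0.25) had adjusted p-values of 0.137 to 0.189. On the other side BAT2 stood at −1.37 (SE 0.30; adjusted p = 0.143), GLN1 at −1.33 (SE 0.35; adjusted p = 0.208) and HIS4 at −1.10 (SE 0.31; adjusted p = 0.238). LEU1 was called when each array was centred on its median, where 83 of all 5403 genes were called. With quantile normalization LEU1, ILV3 and ASN2 were called (limma adjusted p = 0.047, 0.0306 and 0.047), where 164 of all 5403 genes were called. With a term for replicate number in the fit, 0 of the 40 and 0 of all genes were called.

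**Figure D3:**
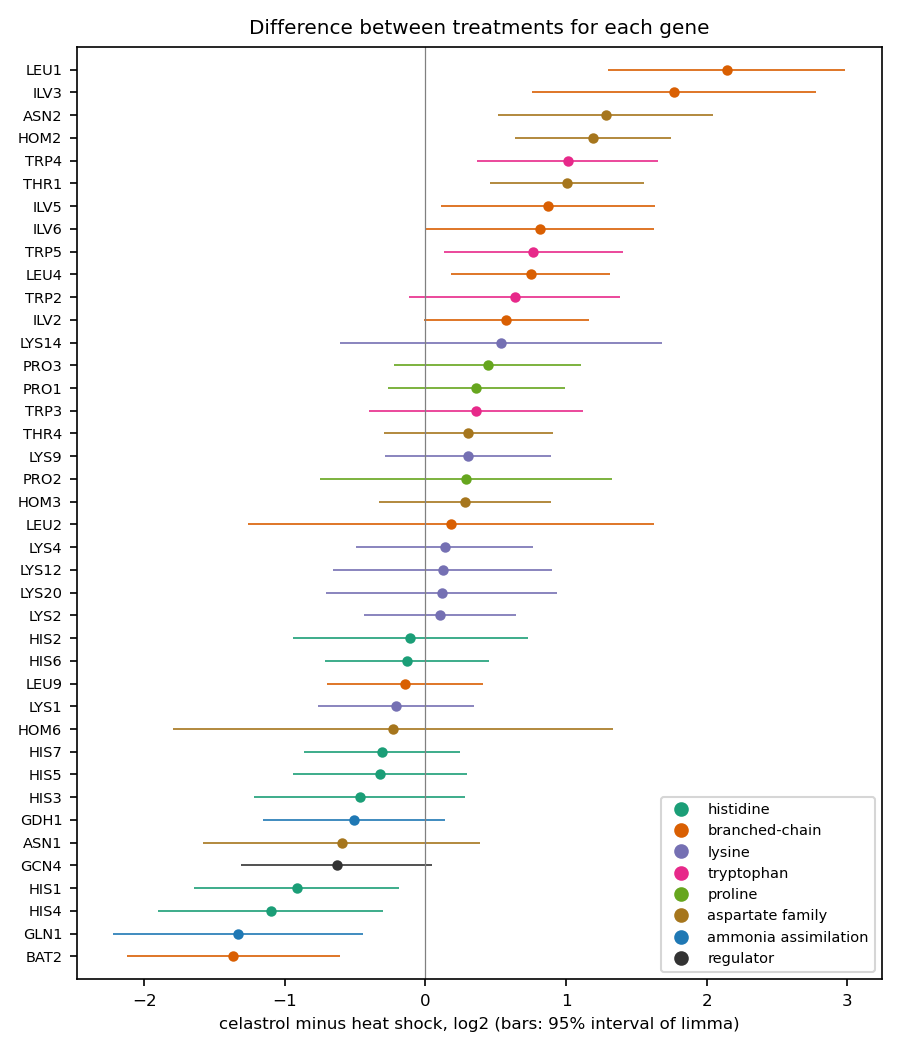
Difference between treatments, celastrol minus heat shock on the log2 scale (x axis), for each of the 40 genes (rows), with bars for the 95% interval of limma before any adjustment. LEU1 stands at the top at 2.14 and BAT2 at the bottom at −1.37, and all 7 histidine genes lie below 0 while the 4 tryptophan and 3 proline genes lie above it.

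Without a test, the arrays of the treatments did not overlap for 29 of the 40 genes. Both celastrol arrays lay above both heat shock arrays for 18 (45.0%), where 18.1% of all genes did, and below them for 11 (27.5%), where 28.9% of all genes did. The 18 included 6 branched-chain genes of 9, 5 aspartate-family genes of 7, 3 tryptophan genes of 4, 2 proline genes of 3 and 2 lysine genes of 7. The 11 were the 5 histidine genes named above, LEU9, BAT2, LYS1, GDH1, GLN1 and GCN4. A dye effect of equal size on all arrays does not enter these counts.

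Intervals of the difference show how closely the treatments could be told apart for genes near each other. For LEU9 the difference was −0.14 with a 95% half-width of 0.56, for LYS4 0.14 with 0.63, and for LYS2 0.11 with 0.54. For LEU2 it was 0.18 with 1.44, and for HOM6 −0.23 with 1.56, so that for LEU2 and HOM6 differences of over 1 log2 unit in either direction lie within the interval.

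Across the 40 genes, mean ratios after celastrol and after heat shock had r = 0.28 (Spearman 0.35), and over all 5403 genes r = 0.58 (Spearman 0.59). Genes are not independent replicates and the arrays of all treatments share the dye order, so these values describe the arrays. The replicate arrays had r = 0.65 for celastrol and r = 0.78 for heat shock over the 40 genes, against 0.85 and 0.66 over all genes. The spread of the 40 genes was 0.384 (SD of the mean ratios) after celastrol, against 0.781 after heat shock. Over all genes it was 0.664 and 0.688.

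**Figure D4:**
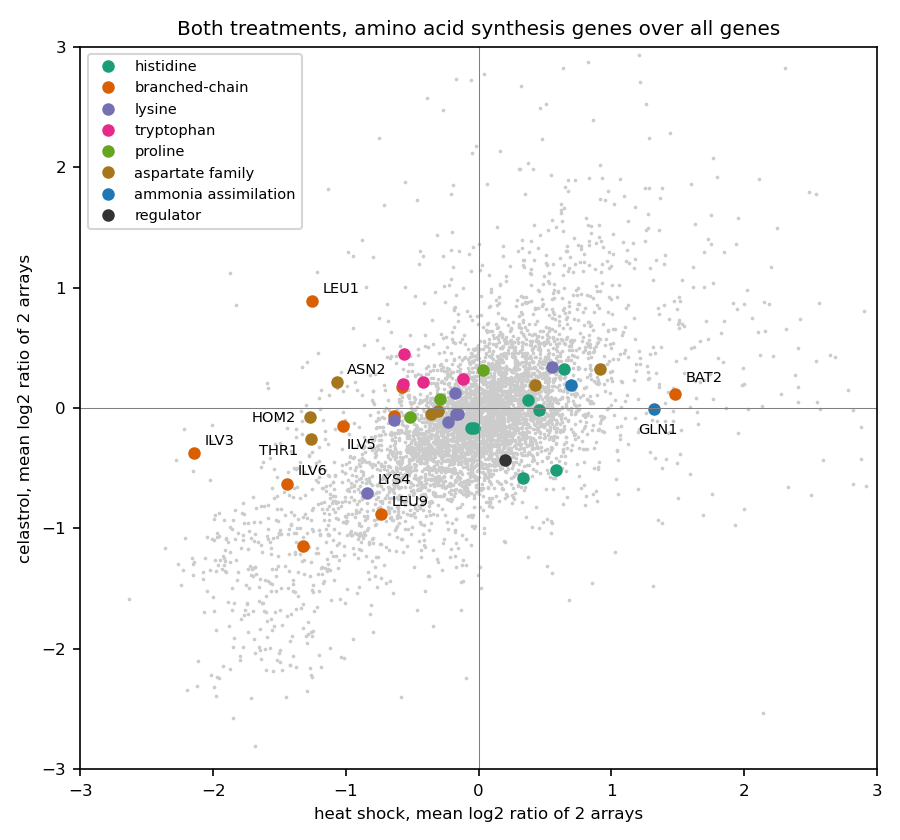
Mean log2 ratio after celastrol (y axis) against that after heat shock (x axis) for the 40 genes (coloured by pathway) and all genes tested (grey), with 28 genes beyond ±3 not drawn. Genes called after either treatment are named, and most of the 40 lie in a flat band about 0 on the celastrol axis while spreading from −2.14 to 1.48 on the heat shock axis.

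Of the 40 genes 10 lay below 0 on all 4 arrays (25.0%, where 27.4% of all genes did): LEU2, LEU9, ILV3, ILV5, ILV6, LYS2, LYS4, HOM2, THR1 and THR4. LEU2, ILV3 and ILV6 also had a mean over the arrays of −1 or less, as 6.61% of all genes did. These genes include LEU9, which fell after celastrol, and 6 of the 8 that fell after heat shock, and a dye effect in them was not tested.

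Other genes of the same pathways were called about as often as genes at large. Of 26 measured companions (13 enzymes or carriers and 13 regulators), 1 rose and 0 fell after celastrol (3.85%, where 6.53% of all genes were called), and 1 rose and 1 fell after heat shock (7.69%, where 9.07% were called). PUT1, for proline oxidase, which starts proline breakdown, had ratios of 0.53 and 0.48 on the celastrol arrays, against 1.75 and 1.4995 on the heat shock arrays, and rose 3.08-fold after heat shock (1.62 ± 0.17, SD, n = 2; adjusted p = 0.0133). PUT3, for the activator of the proline breakdown genes, had 0.84 and 0.86 on the celastrol arrays, against 0.40 and 0.55 on the heat shock arrays, and rose 1.80-fold after celastrol (adjusted p = 0.0429). ILV1, for threonine deaminase, the entry to isoleucine, had −0.60 and −0.70 on the celastrol arrays, against −0.67 and −1.20 on the heat shock arrays. It fell after heat shock to 0.522 of the 30 °C level (−0.94 ± 0.38, SD, n = 2; adjusted p = 0.0478).

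Of the 13 regulators 12 lay within 0.5 log2 units of 0 after celastrol and 13 after heat shock, and PUT3 alone was called. LEU3 averaged −0.41 ± 0.41 after celastrol and −0.37 ± 0.28 after heat shock, and GCN2, for the kinase of general amino acid control, 0.13 ± 0.02 and −0.31 ± 0.40 (SD, n = 2 each). BAS1, for an activator shared by histidine and purine genes, had −0.14 and −0.44 on the celastrol arrays, against 0.65 and 0.05 on the heat shock arrays. GDH2, for the glutamate dehydrogenase that releases ammonia, had 0.00 and −0.05 on the celastrol arrays, against 0.89 and 0.58 on the heat shock arrays, and missed the call after heat shock (adjusted p = 0.0572).

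Genes next to the called ones on the chromosome were looked up as a measure of local spread. Of 16 measured protein-coding neighbours of the 10 genes called after heat shock, 2 were called, ATG33 beside ILV5 (0.80) and YJR149W beside BAT2 (0.91), where 9.07% of all genes were called. The mean ratio lay on the same side of 0 as that of the called gene for 13 of the 16, YJR149W among them and ATG33 not. Of all 5403 genes, 2680 had a mean below 0 after heat shock and 2723 above it. For LEU9 after celastrol, RGS2 at −0.93 was called and INP53 at −0.41 was not. Both lay below 0 like LEU9, as did 3318 of all 5403 genes. Whether neighbours are linked was not tested.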

How the data were processed

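The authors deposited 1 value per probe and array, taken as a log2 ratio of treated (Cy5) over control (Cy3). Per the labels, duplicate values were averaged within each chip and normalized to the median of its signals. No source used here names the array software, background correction or spot filter. Base 2 was read from heat shock replicate 1, where 365 pairs of values differ by the log2 of a small whole-number ratio (tolerance 2e-09) and 0 by its natural and 1 by its decimal log; the other arrays had 4 or 5 such pairs for base 2 and 0 to 3 for the others.

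No further scaling was applied, and exact zeros were taken as missing. Of 6415 probes 5619 have 1 gene in the platform annotation, and all these matched the RefSeq R64 table. Probes of a gene were averaged, leaving 5403 genes on all 4 arrays. limma 3.58.1 in R 4.3.3 fitted 1 mean per treatment (2 residual and 3.12 prior degrees of freedom), with Benjamini-Hochberg adjustment over all genes. The code was tested on simulated data.

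The named genes are the 42 members, with 27 companion genes as a list (GAT1, like BAT1, has only a probe annotated to several genes and was left out) and 2 genes to check labels. Full values were planned for called members, GCN4 and isoenzyme pairs. Members and lists were chosen with earlier results of these data known. Neighbouring genes and overlaps were added after the values were seen. The planned promoter motifs and protein identities were not analysed here. Alternatives were other scalings, zero handling, probe summary, robust fitting, single treatments, a fold threshold, arrays left out and a replicate block.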

Additional observations from a re-analysis of the deposited data

How the results depend on the processing

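The number of amino acid genes called after celastrol, 1, was 0 with median-centred arrays and when tested for a change beyond 1.5-fold. It was 3 with quantile normalization and 4 with the celastrol arrays fitted alone, where 1522 of all 5403 genes were called. The number after heat shock, 10, was 16 with quantile normalization, 0 with the heat shock arrays fitted alone, 0 against a 1.5-fold change (9 at an unadjusted p under 0.05), and 0 to 17 with 1 array left out. For celastrol minus heat shock, 0 became 1 with median-centred arrays and 3 with quantile normalization, where 83 and 164 of all genes were called. The heat shock range with 1 array left out is not read as a result, since 1 treatment then has 1 array. For the same reason such calls are not given after celastrol or for the difference. Over all genes, quantile normalization called 1135 after celastrol against 353, and 989 after heat shock against 490. The heat shock count was 8 with median-centred arrays and with robust fitting (ILV5 and LYS4 lost in both), 7 with zeros kept (ILV5, LYS4 and ASN2 lost) and 10 with probe medians. With zeros kept, probe medians or robust fitting the counts after celastrol and for the difference stayed at 1 and 0. No gene reversed a call under any of these settings. Replicate numbers were not stated to pair arrays, and deviations of same-numbered arrays correlated at −0.31; with the replicate block 0 of the 40 genes and 0 of all genes were called for the difference, against 60 of all genes without it. With the crossed replicate block, added after that correlation was seen, 0 of the 40 and 50 of all genes were called.

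Pathway medians after celastrol all shifted up with median-centred arrays, to −0.047 (histidine, −0.16 uncentred), −0.036 (branched-chain, −0.15), 0.065 (lysine, −0.05), 0.35 (tryptophan, 0.23), 0.19 (proline, 0.07) and 0.093 (aspartate family, −0.02), so lysine and the aspartate family turned sign. With quantile normalization those that moved by more than the SD between arrays were at −0.10 (branched-chain) and 0.30 (tryptophan). After heat shock those were at 0.31 (histidine, otherwise 0.37), −0.26 (lysine, −0.18) and −0.45 (aspartate family, −0.36). With 1 of the 4 arrays left out they ranged after celastrol from −0.34 to 0.12 (histidine), −0.20 to −0.15 (branched-chain), −0.24 to 0.14 (lysine), 0.22 to 0.30 (tryptophan), −0.11 to 0.074 (proline) and −0.078 to 0.033 (aspartate family), so in histidine, lysine, proline and the aspartate family their sign rests on 1 array. After heat shock they ranged from 0.37 to 0.43 (histidine), −1.02 to −0.65 (branched-chain), −0.21 to −0.11 (lysine), −0.61 to −0.25 (tryptophan), −0.48 to −0.096 (proline) and −0.53 to −0.36 (aspartate family), with no change of sign. These are medians over the means of genes. The cause of these moves was not tested. Signal over background is unknown, since the files hold ratios alone, so weak spots cannot be told from strong ones.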
